A study of Saccharomyces cerevisiae with 18 samples.

Results

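The transcript levels of *S. cerevisiae* cells exposed to γ-radiation were compared with those of mock-irradiated cells. The 6 arrays are those whose sample titles name either treatment, 3 of each, out of 18 arrays in the series. Strain DBY747 is a haploid *MAT*a laboratory strain that lacks working copies of *HIS3*, *LEU2*, *URA3* and *TRP1*, and all 18 cultures are of it. Cells in rich medium at mid-log phase received 210 Gy of γ-radiation, a dose that killed 20 to 25% of them, and were left for 13 min at ambient temperature before harvest. The controls, at 0 Gy, are called mock gamma in the sample labels and water vehicle in the paper. The other 12 arrays hold cells given 1 of 3 enediynes, which are DNA-cleaving natural products, or their methanol vehicle, and are used here only for a comparison of the response. Each array holds the RNA of 1 culture, labelled as a biological replicate and numbered 1 to 3, and array replicates with the same number were treated as a pair.

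Ionizing radiation breaks DNA strands directly and also makes reactive oxygen species that oxidize bases, lipids and proteins. In budding yeast, broken or stalled DNA activates the kinases Mec1 and Tel1, which act through Rad53 and Dun1. Dun1 releases the repressor Rfx1 from the genes of ribonucleotide reductase, the enzyme that makes deoxyribonucleotides, and the checkpoint holds cells before anaphase. Peroxides are sensed separately, through the transcription factor Yap1, and a broad set of stresses acts through Msn2 and Msn4 while lowering transcription of the genes that build ribosomes.

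A level below is an RMA (robust multichip average) intensity on a linear scale, in arbitrary units. A change is a log2 fold change, γ-radiation minus mock irradiation, averaged over the 3 pairs and given with its standard error (± SE, n = 3 pairs). That error is limma's moderated one, in which the variance of a gene is drawn toward that of all genes. It is therefore not the spread of the 3 pairs alone, and for genes whose pairs differ much it is smaller. *HOF1*, for example, changed by -2.41, -1.16 and -1.35 in pairs 1 to 3, with a moderated error of 0.20. The test was limma's moderated test with replicate number as a pairing term, and every adjusted p is its Benjamini-Hochberg value over 5656 genes. A gene was called, and is said to have risen or fallen, at a fold change of 1.5 or more with an adjusted p of 0.10 or less. The levels of different genes are not compared with each other, because probes differ in brightness.

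Of 5656 genes tested 173 were called, which is 3.06%. They divide into 91 that rose (1.61%) and 82 that fell (1.45%). The change had the same sign in all 3 pairs for 172 of the 173, the exception being *RRT2*. In 114 of the 173 the γ-radiation arrays did not overlap the mock arrays, as was so for 834 genes or 14.7% of all tested. Past a 2-fold change were 31 called genes, of which 19 rose and 12 fell. The median change over all genes was -0.04, with 2443 above 0 and 3213 below, and the median standard error was 0.13. Just inside the fold limit lay *PSK1* at 0.59 and *PRP43* at -0.59, and just outside it *ADP1* at 0.58 and *YBL028C* at -0.58.

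**Figure D1:**
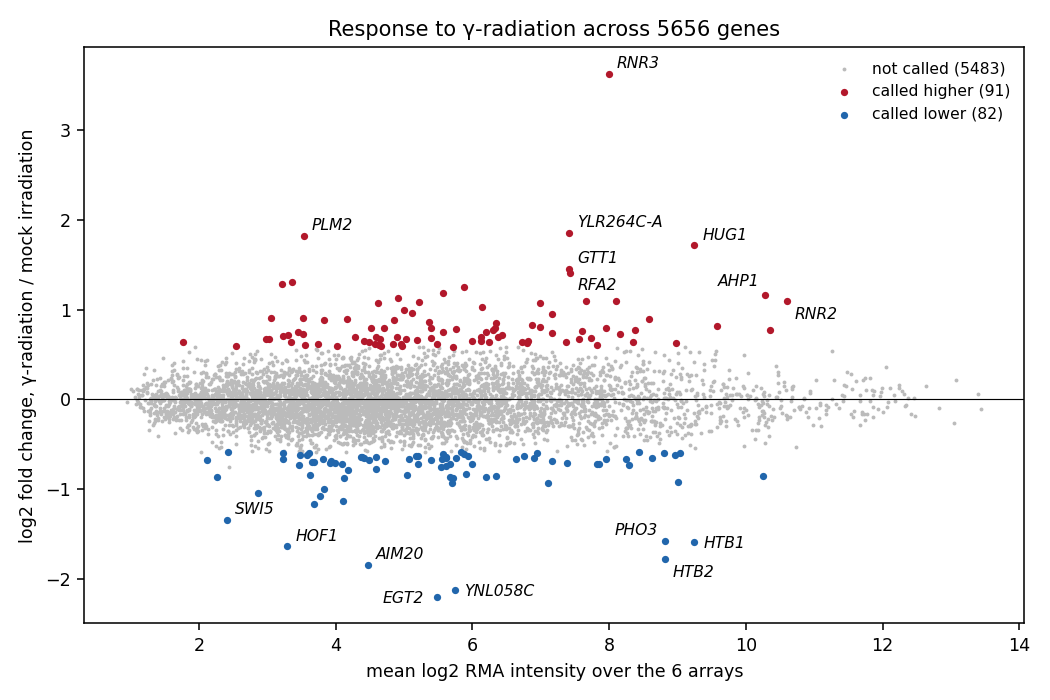
Log2 fold change after γ-radiation (vertical axis) against the mean log2 RMA intensity over the 6 arrays (horizontal axis), 1 point per gene for 5656 genes. The 91 genes called higher are red and the 82 called lower are blue. *RNR3* stands highest at 3.64, and *EGT2* lowest at -2.21.

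The calls depend on the pairing. Without it, 17 genes were called, all of them among the 173: *RNR3*, *RNR2*, *HUG1*, *DUN1*, *RFA1*, *RFA2*, *ASF1*, *GTT1*, *EMA19* and *ERP3*, which were higher, and *HTB1*, *SWI5*, *CDC20*, *PHO3*, *CAR1*, *AIM20* and *YNL058C*, which were lower. Of the 173 genes 119 were also called without pair 1, 90 without pair 2 and 150 without pair 3, and 67 in all 3 of these fits. Counts given below for a pair left out are of the 173 calls that were kept, and genes called only then are not counted. The 30 genes with the largest changes, 15 in each direction, were called with each pair left out, and 13 of the 30 also without the pairing. The arrays were also compared apart from the response. Their median intensities lay between 15.3 and 15.97, and the log2 difference between the 5′ and 3′ probe sets of actin, a sign of RNA integrity, between -0.80 and -0.69. The 6 markers of the *MAT*a mating type summed to 2413 to 2825 on the mock arrays and 2855 to 3439 after γ-radiation, without overlap. Most of that sum came from *MFA1* and *MFA2*, with mock means of 849 and 1442. The markers did not move together: *MFA1* changed by 0.49, *MFA2* by 0.19, *AGA2* by 0.13, *STE2* by 0.01, *STE6* by -0.25 and *BAR1* by -0.28. The 4 markers of the opposite mating type summed to 86.7 to 95.1 and 87.6 to 103, and 0 of either set were called.

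The gene with the largest rise belongs to ribonucleotide reductase. *RNR3*, which encodes the alternative large subunit, was at 70.04, 56.2 and 95.8 on the mock arrays of replicates 1 to 3 and at 794, 939 and 970.2 after γ-radiation, a 12.4-fold rise (log2 3.64 ± 0.15, adjusted p = 2.48e-08). All 3 irradiated cultures lay far above all 3 mock cultures, and no other gene changed as much in either direction. *RNR1*, the main large subunit, stood at 176, 86.2 and 44.6 and rose to 366, 237 and 72.4 (log2 1.07 ± 0.15, adjusted p = 0.00191). Its groups overlap, since replicate 1 was highest and replicate 3 lowest in both, while within every pair the irradiated culture was higher. The small subunit genes *RNR2* and *RNR4* were bright in both groups and moved less. *RNR2* was at 1188, 1010.2 and 1008 and then at 2412, 2390.3 and 2053 (log2 1.10 ± 0.13, adjusted p = 4.09e-04), and *RNR4* at 970.2, 952 and 1099 and then at 1676, 1753 and 1736 (log2 0.78 ± 0.13, adjusted p = 0.00496). Neither overlapped between the groups.

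Of the regulators of the enzyme 2 rose. *HUG1*, a small protein that inhibits the reductase, went from 315, 265 and 451 to 1058, 931 and 1359.8 (log2 1.72 ± 0.13, adjusted p = 6.47e-06), and *DUN1*, the kinase that controls it, from 26.7, 25.2 and 22.9 to 44.6, 52.5 and 48.8 (log2 0.96 ± 0.13, adjusted p = 0.00146). Both were higher in all 3 irradiated cultures than in any mock culture. *SML1*, an inhibitor of the large subunit, was at 1515, 1264 and 921 and then at 1150.1, 786 and 662. Its change of -0.52 ± 0.13 had an adjusted p of 0.0407 and did not reach the fold limit. The repressor gene *RFX1* was at 0.44 ± 0.17 (adjusted p = 0.161), *DIF1*, which takes the small subunit into the nucleus, at -0.23 ± 0.14 (adjusted p = 0.352), *WTM1*, which holds it there, at 0.06 ± 0.14 (adjusted p = 0.839), and *CRT10*, a regulator of transcription of the genes, at 0.01 ± 0.13 (adjusted p = 0.974). In all, 6 of the 11 genes of the enzyme and its control rose and 0 fell, so that 54.5% were called, beside 3.06% of all genes. The median change was 0.78, and the same 6 were called with any pair left out.

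The set of genes known as the DNA damage signature of yeast overlaps with these. Of its 6 members measured 4 rose: *RNR2*, *RNR4*, *DUN1* and *ALG14*, a subunit of the enzyme that adds the second sugar in N-glycosylation. *ALG14* went from 22.1, 23.7 and 16.05 to 53.6, 48.4 and 34.03 (log2 1.13 ± 0.13, adjusted p = 3.31e-04), without overlap. The other two stayed under the fold limit, *FMP52* at 0.52 ± 0.13 (adjusted p = 0.0339) and the recombination gene *RAD54* at 0.48 ± 0.13 (adjusted p = 0.0551). The list was chosen in other studies for its response to DNA damage. By the paper's account that damage came from an alkylating agent and from γ-radiation itself. A high share called here is therefore built into the list and is no separate support. Of its measured members 66.7% were called, beside 3.06% of all genes, and its median change here was 0.87.

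**Figure D2:**
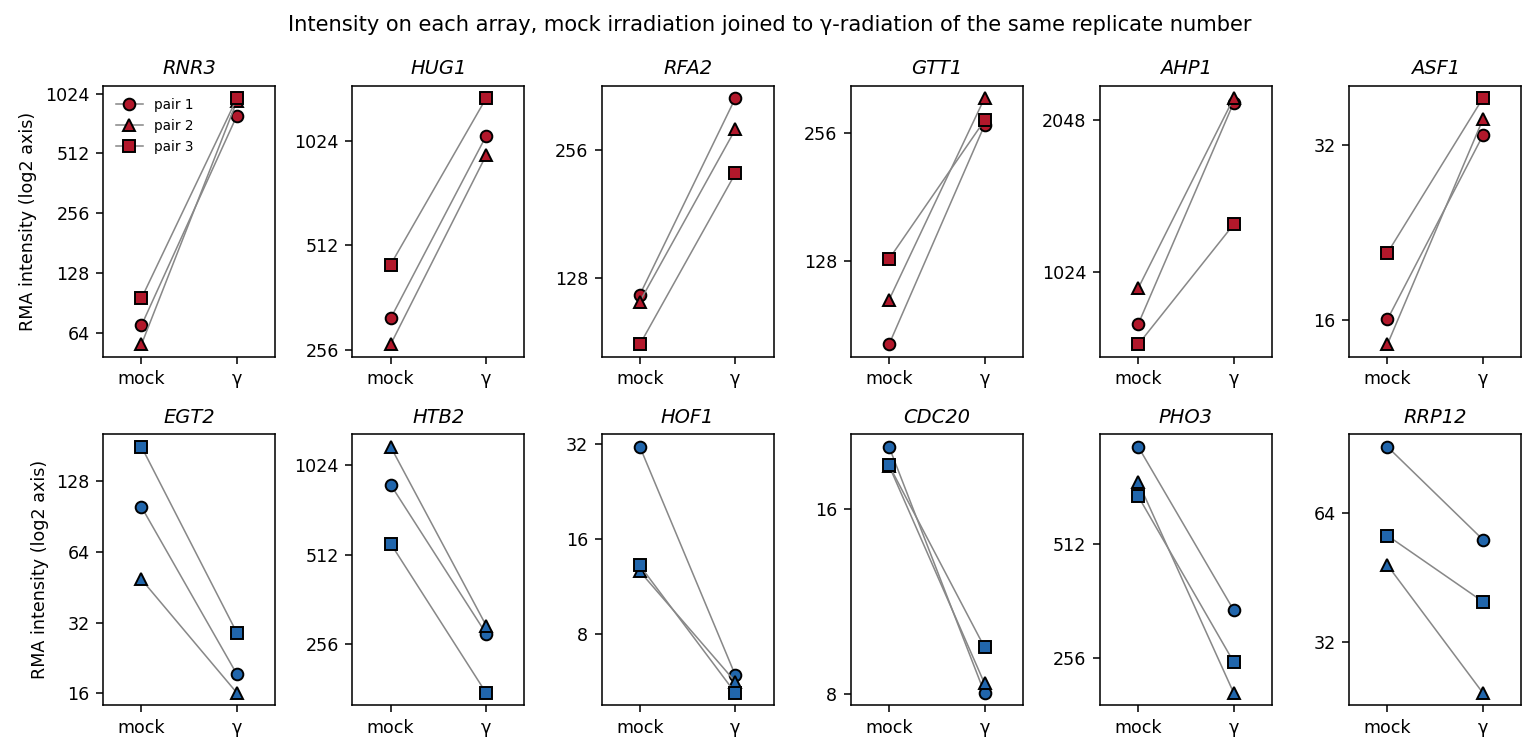
RMA intensity (log2 axis) of 12 genes on each mock (left) and γ-radiation (right) array, with lines joining the arrays of a replicate number. Red genes rose and blue genes fell, and in each panel all 3 lines run in the same direction. The groups overlap for *RRP12* and not for *RNR3*, whose mock arrays reach 95.8 and whose γ-radiation arrays begin at 794.

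The 3 subunits of replication protein A, which coats single-stranded DNA in replication and repair, rose together. *RFA1* was at 35.1, 36.4 and 43.2 on the mock arrays and at 110.1, 83.4 and 82.3 after γ-radiation (log2 1.26 ± 0.15, adjusted p = 4.37e-04). *RFA2* rose from 117, 112 and 88.9 to 339.8, 287 and 226 (log2 1.41 ± 0.13, adjusted p = 4.18e-05), and *RFA3* from 143, 154 and 121 to 361, 302 and 239 (log2 1.10 ± 0.13, adjusted p = 4.90e-04). None of the 3 overlapped between the groups, and the smallest rise of the 3 was still past 2-fold. The remaining replication genes called were *POL1*, the catalytic subunit of DNA polymerase α, at 0.70 ± 0.15 (adjusted p = 0.0224), *PRI2*, the large primase subunit, at 0.60 ± 0.14 (adjusted p = 0.0265), and *CDC45*, a part of the replicative helicase, at 0.73 ± 0.15 (adjusted p = 0.0167). These 6 are all that were called of 45 replication genes (13.3%, beside 3.06% of all genes). None of the 45 fell, and the median of the list was 0.09. Without pair 1 the calls of *POL1*, *PRI2* and *CDC45* were lost, without pair 2 those of *PRI2* and *CDC45*, and without pair 3 that of *POL1*, which left 3, 4 and 5. *POL30*, the sliding clamp PCNA, rose from 62.95, 70.4 and 50.2 to 147, 107 and 84.6 (log2 0.86 ± 0.15, adjusted p = 0.00585), and was the only 1 of 16 post-replication and mismatch repair genes called.

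Beside the reductase, 12 genes that supply nucleotides for DNA synthesis had a median of -0.18, with 4 above 0 and 8 below. Of the 12 genes 2 rose and 0 fell (16.7% called, beside 3.06% of all genes). *CDC8*, thymidylate kinase, rose by 0.62 ± 0.14 (adjusted p = 0.0223) and *CDC21*, thymidylate synthase, by 0.61 ± 0.16 (adjusted p = 0.0523). Both act late in the making of dTTP. A second probe set for *CDC21* stood at 0.07, with an adjusted p of 0.82. Neither call was kept without pair 1 or without pair 2.

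The lists of repair and checkpoint genes had 0 or 1 call each, shares of 0 to 6.25% beside 3.06% of all genes. Of 28 genes of homologous recombination and end joining 0 were called, and the median was 0.01, near the -0.04 of all genes. *RAD52*, which loads the recombinase, was at 41.8, 36.8 and 39.5 and then at 54.9, 49.4 and 47.8 (log2 0.36 ± 0.13, adjusted p = 0.12), so that the groups did not overlap but the change missed both limits. Of 27 base and nucleotide excision repair genes 1 rose, *RAD16*, which acts in repair of silent DNA (log2 0.64 ± 0.16, adjusted p = 0.0409), and that call was lost without pair 1. *OGG1*, the glycosylase that removes 8-oxoguanine, was at 0.48 ± 0.13 (adjusted p = 0.0523). Of 22 checkpoint sensors and kinases the only gene called was *DUN1*, while *RAD53* was at 0.35 ± 0.14 (adjusted p = 0.173) and the median was 0.03. The cohesin list had 1 gene called of 16, *SMC3* at 0.68 ± 0.15 (adjusted p = 0.0223), a call lost when pair 1 or pair 2 was left out.

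Of 4 histone genes measured 3 fell and 0 rose (75% called, beside 3.06% of all genes), with a median of -1.11. Both genes for histone H2B fell: *HTB2* from 881, 1183 and 558 to 277, 295 and 175 (log2 -1.78 ± 0.13, adjusted p = 6.47e-06), and *HTB1* from 1014, 1335 and 852 to 405, 334 and 314 (log2 -1.59 ± 0.15, adjusted p = 6.01e-05). Every irradiated culture lay below every mock culture for both genes. The 2 coding sequences are nearly identical, so that each probe set may report on both transcripts. *HTZ1*, which encodes the variant H2A.Z, fell from 142, 172 and 99.03 to 87.1, 98.01 and 77.5 (log2 -0.63 ± 0.14, adjusted p = 0.0224), a call lost without pair 1 and without pair 2. The linker histone gene *HHO1* was at 45.2, 59.7 and 32.3 and then at 62.2, 54.5 and 34.4 (log2 0.14 ± 0.14, adjusted p = 0.608). The other 6 of the 10 histone genes had no probe set of their own and were not tested. Of 17 histone chaperones and regulators 2 rose (11.8%). *ASF1*, a chaperone of histones H3 and H4, rose from 16.04, 14.5 and 20.9 to 33.3, 35.5 and 38.6 (log2 1.07 ± 0.13, adjusted p = 5.80e-04) without overlap, and *CAC2*, a subunit of chromatin assembly factor 1, rose by 0.67 ± 0.13 (adjusted p = 0.0137) except when pair 2 was left out.

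The genes that cells switch on for mitosis formed the largest group that fell. The CLB2 cluster is driven by forkhead factors from G2 to mitosis. Of 29 of its genes 13 fell and 0 rose (44.8% called, beside 3.06% of all genes). Of the 29 genes 28 lay below 0, with a median of -0.55 against -0.04 for all genes. *HOF1*, which acts in the cytokinetic ring, was at 31.4, 12.6 and 13.2 on the mock arrays and at 5.90, 5.62 and 5.18 after γ-radiation (log2 -1.64 ± 0.20, adjusted p = 4.65e-04). The irradiated cultures were close together here and the mock cultures were not, with replicate 1 well above the other two. *SWI5*, the transcription factor of late mitosis, fell from 10.3, 7.21 and 8.29 to 3.57, 3.34 and 3.15 (log2 -1.34 ± 0.13, adjusted p = 1.03e-04), and *CDC20*, the activator of the anaphase-promoting complex, from 20.2, 18.8 and 18.9 to 8.03, 8.32 and 9.52 (log2 -1.17 ± 0.13, adjusted p = 3.22e-04). *SWI5* was dim on all 6 arrays. *CHS2*, chitin synthase II of the primary septum, went from 38.2, 18.8 and 23.6 to 15.2, 9.94 and 10.5 (log2 -1.14 ± 0.13, adjusted p = 4.09e-04). The mitotic cyclin *CLB1* went from 28.5, 18.1 and 15.3 to 10.7, 7.87 and 9.87 (log2 -1.08 ± 0.16, adjusted p = 0.00202), and *ALK1*, a haspin-like kinase, from 14.9, 10.3 and 7.51 to 4.76, 5.01 and 5.45 (log2 -1.05 ± 0.18, adjusted p = 0.00783). For all 6 of these genes the groups did not overlap. After γ-radiation all 6 lay below 15.3, the lowest median intensity of the 6 arrays, so *SWI5* was not the only dim one.

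The other members of the cluster that fell had changes between -0.70 and -0.62. They were *BUD3* and *IQG1*, of bud site and cytokinetic ring, *MOB1*, *SPO12* and *BNS1*, of mitotic exit, *FKH1*, a forkhead factor, and *CDC5*, the polo kinase. *IQG1* was dim on all 6 arrays, at 6.17, 5.22 and 5.07 and then at 3.80, 3.12 and 3.41. The mitotic cyclin *CLB2* itself was at 7.84, 5.96 and 4.40 and then at 4.53, 4.27 and 3.41, with -0.55 ± 0.13 and an adjusted p of 0.0392, under the fold limit. Of the 13 calls 12 were kept without pair 1, which lost *CDC5*, and 13 without pair 3. Without pair 2 there were 7, with *CDC5*, *BUD3*, *IQG1*, *SPO12*, *BNS1* and *FKH1* lost. The median of the 29 genes was -0.59 in pair 1, -0.58 in pair 2 and -0.25 in pair 3. From bulk RNA, fewer cells in a phase and less RNA per cell cannot be told apart.

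Among genes of the next step, the separation of mother and daughter cells, 5 that fell are named here, and other genes of that step were not called. *EGT2*, a cell wall protein needed to part mother and daughter, had the largest fall of all genes, from 99.6, 48.9 and 179.8 to 19.2, 16.03 and 28.9 (4.61-fold, log2 -2.21 ± 0.17, adjusted p = 1.11e-05), and each irradiated culture was below each mock culture. *ASH1*, the daughter-specific repressor, fell by 0.85 ± 0.18 (adjusted p = 0.0185), the glucanase gene *SCW11* by 0.73 ± 0.14 (adjusted p = 0.0137), the cell wall gene *PIR1* by 0.92 ± 0.23 (adjusted p = 0.0383) and the daughter-specific gene *DSE2* by 0.66 ± 0.14 (adjusted p = 0.0224). *PIR1* was close to unchanged in pair 2, at 551 and 538. Of these 5 calls 2 were kept without pair 1 (*DSE2*, *SCW11* and *PIR1* lost), 5 without pair 2, and 2 without pair 3 (*DSE2*, *ASH1* and *PIR1* lost).

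**Figure D3:**
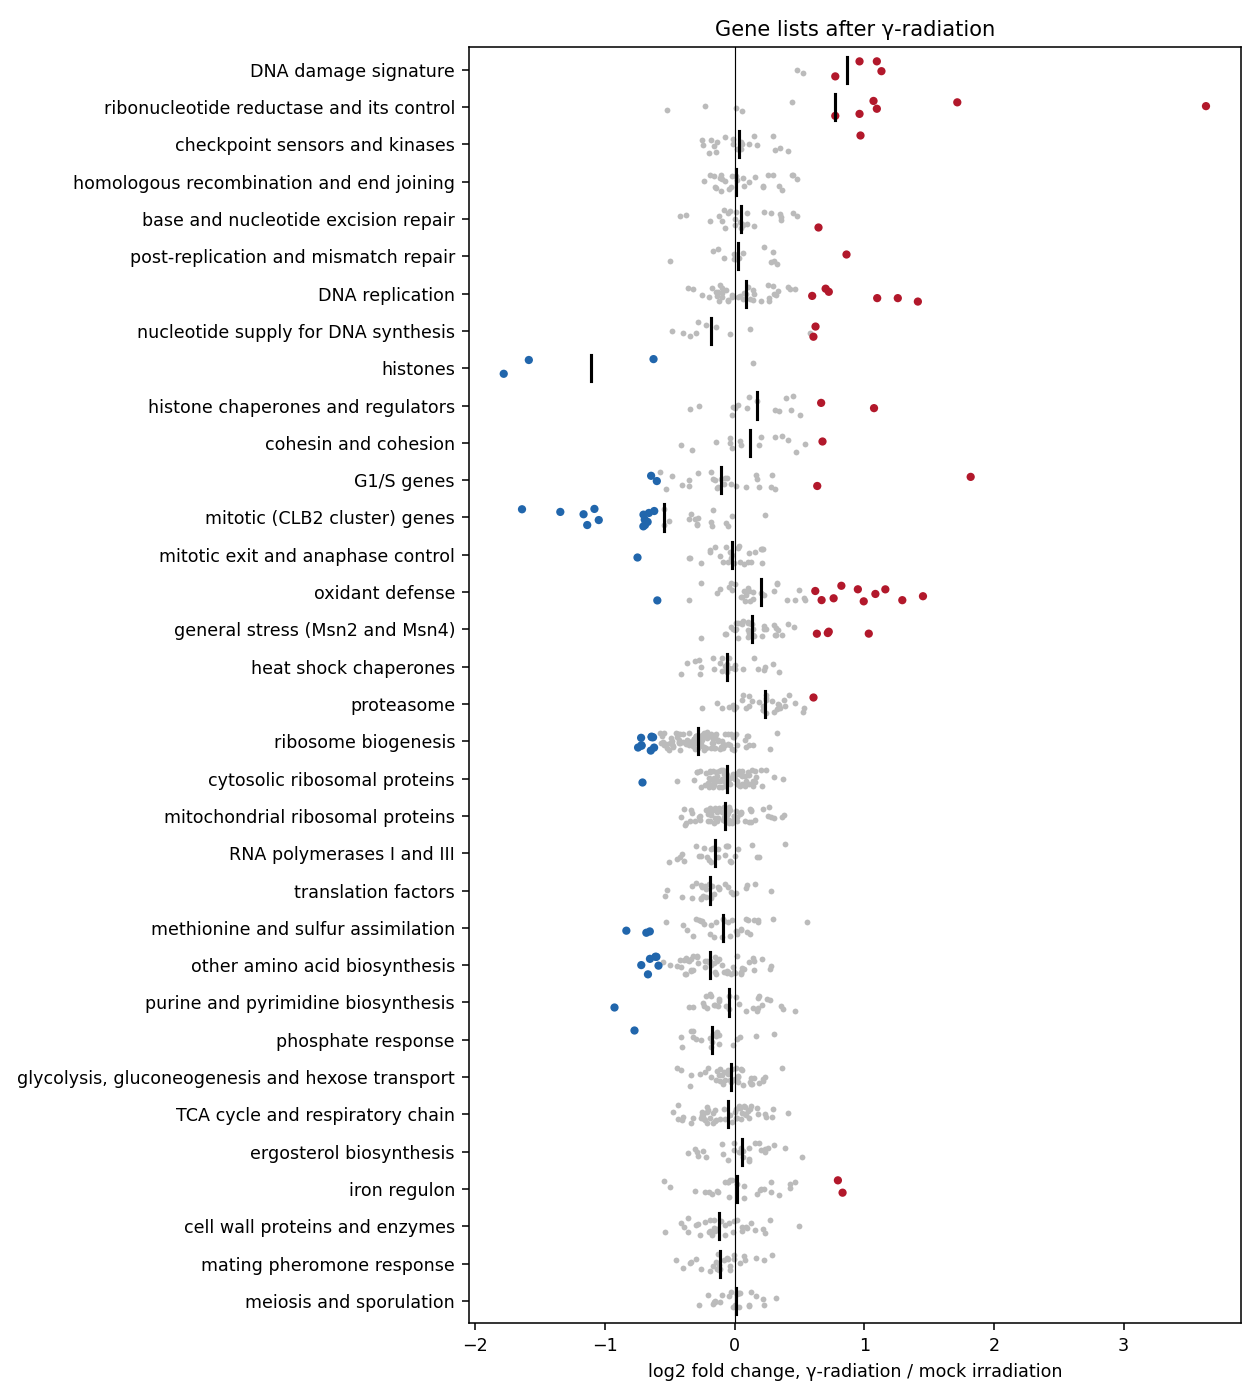
Log2 fold change after γ-radiation (horizontal axis) of each measured member of 34 gene lists, with genes that rose in red, genes that fell in blue, others in grey and the median of a list as a black bar. The lists of cyclin-dependent kinase inhibitors, daughter cell separation and the mating type genes are not drawn. The medians lie at 0.87 for the DNA damage signature, -1.11 for histones, -0.55 for mitotic genes and -0.28 for ribosome biogenesis.

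Genes of anaphase control and mitotic exit in a list of their own had 1 call among 27 (3.7%), near the 3.06% of all genes, with a median of -0.02. That gene, *AMN1*, an antagonist of mitotic exit, fell by 0.75 ± 0.16 (adjusted p = 0.0185), a call lost without pair 3. The 29 genes of the G1/S transition had 2 rises and 2 falls (13.8% called) and a median of -0.10. *PLM2*, which encodes a forkhead-associated domain protein, rose from 6.31, 7.72 and 4.81 to 34.97, 29.1 and 10.2 (log2 1.82 ± 0.20, adjusted p = 3.01e-04), with replicate 3 the lowest in both groups. The related gene *TOS4* was also higher, at 0.64 ± 0.14 (adjusted p = 0.0242), but lost the call without pair 1 and without pair 2. The G1 cyclin *CLN2* fell by 0.64 ± 0.15 (adjusted p = 0.0291), a call lost without pair 2 and without pair 3, as was that of the cell wall gene *TOS6* (log2 -0.60 ± 0.13, adjusted p = 0.0202). *CLN1*, the other cyclin of that pair, was at -0.28 ± 0.13 (adjusted p = 0.239). Without pair 1, 2 or 3 the G1/S list kept 3, 1 and 2 of its 4 calls. Of 5 inhibitors of the cyclin-dependent kinase 1 fell and 0 rose (20% called, beside 3.06% of all genes). That gene, *FAR1*, fell by 0.64 ± 0.13 (adjusted p = 0.0155), except when pair 2 was left out.

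Genes for enzymes that remove peroxides and other oxidants rose in part. Of 40 genes measured 10 rose and 1 fell (27.5% called, beside 3.06% of all genes), and the median was 0.21. *GTT1*, a glutathione transferase, went from 81.7, 104 and 129.5 to 267, 309 and 274 (log2 1.45 ± 0.15, adjusted p = 1.03e-04), and *AHP1*, a peroxiredoxin, from 809, 953 and 738 to 2215, 2260.2 and 1273 (log2 1.16 ± 0.15, adjusted p = 6.91e-04). In both the groups stayed apart, with *AHP1* of replicate 3 rising less than the other two. *GPX2*, a glutathione peroxidase, was at 8.36, 7.12 and 3.49 and then at 18.7, 29.2 and 5.59 (log2 1.29 ± 0.20, adjusted p = 0.00322), and its groups overlap through replicate 3. *HYR1*, the peroxidase that activates Yap1, rose by 0.76 ± 0.14 (adjusted p = 0.00867), and *MXR2*, a mitochondrial methionine sulfoxide reductase, by 0.95 ± 0.14 (adjusted p = 0.00284). *CRS5*, a metallothionein gene that the RefSeq annotation lists as a pseudogene, rose by 1.09 ± 0.16 (adjusted p = 0.00255).

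The other 4 rises were those of *SOD1*, superoxide dismutase (log2 0.82 ± 0.18, adjusted p = 0.0217), *ZWF1*, which makes NADPH (log2 0.67 ± 0.13, adjusted p = 0.0137), *ECM4*, a glutathione transferase (log2 0.62 ± 0.14, adjusted p = 0.0224), and *AAD10*, a putative aryl-alcohol dehydrogenase (log2 0.995 ± 0.24, adjusted p = 0.0331). *AAD10* belongs to a family of near-identical genes and is uncertain as a name. The main peroxiredoxin *TSA1*, at 0.54 ± 0.14 (adjusted p = 0.0508), and the thioredoxin *TRX2*, at 0.53 ± 0.15 (adjusted p = 0.0667), had adjusted p within the limit but changed less than 1.5-fold. *OYE2*, an NADPH oxidoreductase, fell from 681, 610.4 and 647 to 440.1, 396 and 446 (log2 -0.60 ± 0.13, adjusted p = 0.0199). Leaving out pair 1 or pair 2 removed the calls of *ECM4*, *SOD1*, *OYE2* and *AAD10*, and leaving out pair 2 also that of *ZWF1*. The list then kept 7 and 6 of its calls, and all 11 without pair 3.

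Some general stress genes rose. Of 39 genes under Msn2 and Msn4 4 rose and 0 fell, a share of 10.3% called beside 3.06% of all genes, while 33 lay above 0 and the median was 0.13. *HSP26*, a small heat shock protein, went from 43.5, 66.8 and 41.1 to 104, 123 and 80.4 (log2 1.03 ± 0.13, adjusted p = 7.79e-04), without overlap. *TFS1*, a protease inhibitor (log2 0.73 ± 0.14, adjusted p = 0.0137), *MSC1* (log2 0.72 ± 0.14, adjusted p = 0.0135) and *DDR48*, a gene known for its response to DNA damage (log2 0.63 ± 0.16, adjusted p = 0.0435), lost the call without pair 1 and without pair 2, so that 1 call was kept then, and 4 without pair 3. *HSP12*, a common marker of this response, was at 193, 369 and 228 and then at 222, 339.8 and 266 (log2 0.10 ± 0.13, adjusted p = 0.699), with the groups overlapping. Among 28 heat shock chaperones 0 were called and the median was -0.06. *HSP104*, the disaggregase, was at -0.04 ± 0.13 (adjusted p = 0.883), and the smallest adjusted p of the list belonged to *FES1*, an exchange factor of Hsp70, at -0.42 ± 0.13 (adjusted p = 0.0964). Of 34 proteasome subunit genes 28 lay above 0 with a median of 0.23, and *PRE5*, a subunit of the core (log2 0.61 ± 0.13, adjusted p = 0.02), was the only one called, a share of 2.94%, and lost the call without pair 2 and without pair 3. The median of the proteasome genes was 0.47 in pair 1, 0.02 in pair 2 and 0.16 in pair 3.

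Genes for making ribosomes lay mostly below 0, by a small amount. Of 110 assembly factors 100 lay below 0, with a median of -0.28. Of the 110 genes 9 fell and 0 rose (8.18% called, beside 3.06% of all genes). On the adjusted p alone, with no fold limit, 31 of the 110 passed as lower, beside 290 of all 5656 genes (5.13%), or 524 genes (9.26%) in either direction. *RRP12*, an export factor of both subunits, fell from 91.6, 48.4 and 56.7 to 55.5, 24.2 and 39.7 (log2 -0.74 ± 0.14, adjusted p = 0.00993). Each pair fell, but the groups overlap, since replicate 1 was higher than the others in both. *DBP2*, a DEAD-box helicase, went from 355, 308 and 223 to 229.6, 172 and 139 (log2 -0.72 ± 0.13, adjusted p = 0.00858), and *NOG2*, a GTPase of the large subunit, from 103, 62.7 and 43.8 to 72.2, 31.7 and 27.8 (log2 -0.72 ± 0.14, adjusted p = 0.0123). The other 6 were *TRM1*, a tRNA methyltransferase (log2 -0.72 ± 0.16, adjusted p = 0.0231), and the assembly factors *CIC1* (log2 -0.65 ± 0.14, adjusted p = 0.0218), *SDA1* (log2 -0.64 ± 0.13, adjusted p = 0.0151), *UTP20*, *RRP1* and *TIF6*, the last 3 at -0.64, -0.63 and -0.62. *UTP20* is covered by 9 further probe sets, of which 0 were called and 5 had the same sign. Without pair 2 only *DBP2* of the 9 was still called, and without pair 1 or pair 3 there were 8, with *TIF6* and *UTP20* lost in turn. The median of the 110 genes was -0.20 in pair 1, -0.48 in pair 2 and -0.21 in pair 3.

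Genes for the proteins of the ribosome itself were listed apart. Of 81 cytosolic ribosomal protein genes with a probe set of their own 1 fell (1.23%, beside 3.06% of all genes), and the median was -0.06. That gene, *RPL22B*, went from 223, 206 and 209.97 to 139, 117 and 135 (log2 -0.71 ± 0.13, adjusted p = 0.00858), and was called with any pair left out. Another 57 listed ribosomal protein genes, many of them with a close paralog, had no probe set of their own. There were 0 calls among 70 mitochondrial ribosomal proteins (median -0.07), 28 subunits and factors of RNA polymerases I and III (median -0.15) and 30 translation factors (median -0.19). On the adjusted p alone 4 of the 28 polymerase genes and 2 of the 30 translation factors were lower, beside 5.13% of all genes.

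Among metabolic genes, those of amino acid synthesis fell in part. Of 36 genes of methionine synthesis and sulfur assimilation 3 fell (8.33%, beside 3.06% of all genes), with a list median of -0.09. *HOM3*, aspartate kinase, went from 76.9, 78.6 and 85.99 to 51.6, 43.7 and 40.6 (log2 -0.84 ± 0.14, adjusted p = 0.00496), without overlap. *HOM2*, the next enzyme of that branch, fell by 0.65 ± 0.15 (adjusted p = 0.0282) and *MET10*, a sulfite reductase subunit, by 0.68 ± 0.15 (adjusted p = 0.021). The call of *HOM2* was lost without pair 2 and without pair 3, and that of *MET10* without pair 1, so that 2 of the 3 calls were kept in each case. Of 59 other amino acid synthesis genes 6 fell (10.2%), 0 rose and 46 lay below 0, with a median of -0.19. Of these 3 act in lysine synthesis: *LYS21*, homocitrate synthase, fell from 283, 245 and 382 to 183, 148 and 219 (log2 -0.72 ± 0.13, adjusted p = 0.00797), *LYS4* by 0.65 ± 0.13 (adjusted p = 0.0139) and *LYS12* by 0.59 ± 0.13 (adjusted p = 0.0223). *BAT1*, a branched-chain aminotransferase, fell by 0.67 ± 0.13 (adjusted p = 0.0137), *LEU9*, of leucine synthesis, by 0.61 ± 0.13 (adjusted p = 0.0177) and *HIS5*, of histidine synthesis, by 0.60 ± 0.14 (adjusted p = 0.0291). Of the 6 calls 5 were kept without pair 1 (*LYS12* lost) and without pair 3 (*HIS5* lost), and 2 without pair 2 (*HIS5*, *LYS4*, *LYS12* and *LEU9* lost).

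The phosphate and purine lists each had 1 gene that fell, 4.76 and 3.23% of their members beside 3.06% of all genes, and *PHO3* fell outside them. *PHO3*, the acid phosphatase that is expressed when phosphate is plentiful, went from 924, 746 and 684 to 343, 208 and 250.5 (log2 -1.57 ± 0.14, adjusted p = 2.77e-05), without overlap. Its neighbour and close relative *PHO5*, the repressible acid phosphatase, fell from 29.1, 31.6 and 34.2 to 19.95, 18.5 and 16.8 (log2 -0.78 ± 0.14, adjusted p = 0.00785), and was the only gene called among 21 of the phosphate response, whose median was -0.17. The 2 genes are similar in sequence, so part of the signal of either probe set may come from the other gene. *AAH1*, adenine deaminase, fell from 114, 92.1 and 35.1 to 77.04, 37.7 and 18.4 (log2 -0.93 ± 0.15, adjusted p = 0.00436), lower in every pair though the groups overlap, and was the only call among 31 purine and pyrimidine genes (median -0.05). In the iron regulon 2 of 29 genes (6.9%) rose, *FIT2*, a cell wall mannoprotein (log2 0.83 ± 0.16, adjusted p = 0.0139), and *SMF3*, a vacuolar iron transporter (log2 0.80 ± 0.16, adjusted p = 0.0135). The first was not called without pair 1, nor the second without pair 2. The central routes of carbon and sterol metabolism had 0 calls: 42 genes of glycolysis, gluconeogenesis and hexose transport (median -0.03), 52 of the TCA cycle and respiratory chain (median -0.05) and 28 of ergosterol synthesis (median 0.06). There were also 0 among 34 cell wall genes, 27 of the pheromone response and 24 of meiosis and sporulation.

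Of the 173 calls 87 lay outside these lists and 86 inside. Some of them were among the largest. *YNL058C*, which has no assigned function, fell from 116, 109.9 and 109 to 21.5, 25.9 and 30.2 (log2 -2.13 ± 0.14, adjusted p = 4.22e-06), and *AIM20*, another gene of unknown role, from 55.9, 37.2 and 36.2 to 15.7, 9.67 and 10.8 (log2 -1.84 ± 0.13, adjusted p = 4.33e-06). In both the groups lay far apart. *YMC2*, a mitochondrial carrier, fell by 0.9995 ± 0.13 (adjusted p = 0.00104) and *PRM7*, a pheromone-regulated membrane protein, by 0.94 ± 0.14 (adjusted p = 0.00316), the second with replicate 3 far below the others in both groups. Among the rises, *EMA19*, a gene for a membrane protein, went from 185, 168 and 209.5 to 395, 399 and 406 (log2 1.10 ± 0.13, adjusted p = 4.09e-04). *YLR264C-A*, a short open reading frame of unknown function, went from 67.6, 80.4 and 132 to 331, 455 and 228 (log2 1.86 ± 0.25, adjusted p = 0.00104). *ATR2*, a gene of the drug transporter family, owed much of its change to replicate 3, at 7.17, 6.13 and 6.21 and then at 11.7, 11.6 and 30.9 (log2 1.31 ± 0.23, adjusted p = 0.00858). *RDN5-3*, a copy of the 5S rRNA, was at 23.2, 33.5 and 40.1 and then at 26.9, 114 and 120.2 (log2 1.19 ± 0.23, adjusted p = 0.0135), and rose mainly in replicates 2 and 3. It has near-identical copies, so its value is uncertain.

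Further genes outside the lists are named here after their values were seen. *CAR1*, arginase, fell from 75.5, 70.9 and 67.95 to 38.1, 42.2 and 36.4 (log2 -0.88 ± 0.13, adjusted p = 0.00236). *HEK2*, an RNA-binding protein that takes part in localizing *ASH1* mRNA, fell by 0.87 ± 0.14 (adjusted p = 0.00346), and *MMR1*, which takes mitochondria into the bud, by 0.87 ± 0.14 (adjusted p = 0.00472). Higher were *ERP3*, of the p24 family of vesicle proteins, from 12.4, 14.3 and 12.7 to 27.1, 23.1 and 23.3 (log2 0.90 ± 0.13, adjusted p = 0.00271), *MSA2*, an activator of G1 transcription, by 0.91 ± 0.15 (adjusted p = 0.00389), and *LPP1*, a lipid phosphate phosphatase, by 0.88 ± 0.14 (adjusted p = 0.00316). The groups did not overlap for any of these 6, and each was called with any pair left out.

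The response was then set against that of cells given the enediynes at doses of like lethality. The change after γ-radiation was compared with the mean change of calicheamicin, esperamicin A1 and neocarzinostatin against methanol vehicle, in 1 limma model of all 18 arrays, with replicate number as a block within each set of treatments and their control. The difference between the 2 changes was called for 48 of 5656 genes (0.849%), of which 42 were among the 173, 18 that rose and 24 that fell. The mean enediyne change itself was called for 0 genes by limma, with 546 at an unadjusted p under 0.05 and a smallest adjusted p of 0.42. That count is for the mean of the 3 compounds. The paper reports changed ORFs for each enediyne taken alone, by another test at the same limits. For *RNR3* the enediyne mean was 0.63 ± 0.19, and the difference was 3.005 ± 0.29 (95% interval 2.38 to 3.63, adjusted p = 8.41e-05). For *HUG1* it was -0.04 ± 0.14, with a difference of 1.76 ± 0.21 (adjusted p = 7.89e-04).

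Of the 30 largest changes 22 were called for the difference. The 30 genes were chosen for a large γ-radiation change, which is a part of the difference, so this count is no separate support. Among the falls these included *EGT2* at -2.26 ± 0.31 (adjusted p = 0.00285), *HTB2* at -1.94 ± 0.26 (adjusted p = 0.00177), *HOF1* at -1.79 ± 0.26 (adjusted p = 0.00424) and *SWI5* at -1.41 ± 0.20 (adjusted p = 0.0037). The 2 control groups differed for several of these genes. The mean level of *SWI5* was 4.07 in methanol vehicle, 8.60 in mock irradiation and 3.35 after γ-radiation, that of *CLB1* 9.86, 20.6 and 9.49, and that of *AHP1* 2080.3, 833 and 1916 in the same order. For *HOF1* it was 9.20, 19.03 and 5.57. Of the 173 called genes 42 also passed the test of the difference, and in 13 of them the methanol mean lay nearer on the log2 scale to the γ-radiation mean than to the mock mean, and the part of the starting level in the difference was not tested. For *RFA2* the enediyne mean was 0.61 ± 0.14, and the difference of 0.80 ± 0.23 (95% interval 0.32 to 1.28, adjusted p = 0.175) missed the limit, as it did for *YLR264C-A*, *ATR2*, *GPX2*, *RDN5-3*, *ALK1*, *YMC2* and *PRM7*. By list, the difference was called for 5 of 11 reductase genes, 5 of 29 mitotic genes, 3 of 40 oxidant defense genes and 3 of 110 ribosome assembly genes, beside 0.849% of all genes. The 6 genes called for the difference but not for γ-radiation were *EFM2*, *KAR3*, *STP4*, *UPA2*, *YDR222W* and *YTM1*, all lower after γ-radiation by less than 1.5-fold. Leaving out the arrays of replicate 1, 2 or 3 left 17, 5 and 20 genes called, and 19 were called without the block. The arrays of the chemical treatments varied more in RNA integrity, with actin differences from -3.59 (methanol vehicle, replicate 1) to -0.74, and its part in the result was not tested.

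**Figure D4:**
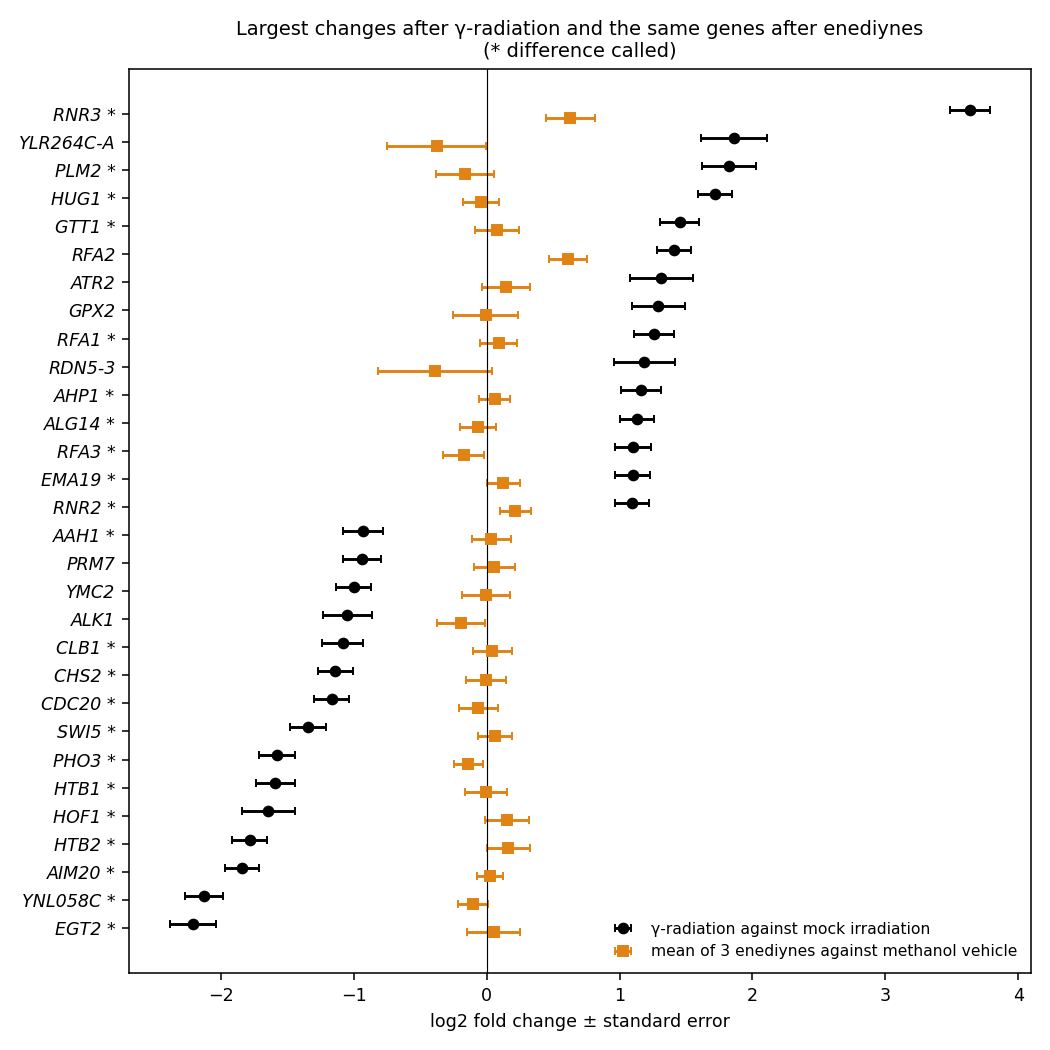
Log2 fold change ± standard error of the 30 genes with the largest changes after γ-radiation (black) and of the same genes for the mean of 3 enediynes against methanol vehicle (orange). An asterisk marks the 22 genes for which the difference was called. The genes were chosen for their γ-radiation change, which comes from the fit of 6 arrays, while the enediyne change and the asterisks come from the fit of 18. *RNR3* is at 3.64 and 0.63 ± 0.19, and *EGT2* at -2.21 and 0.05 ± 0.20.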

How the data were processed

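The authors deposited linear intensities, which they made from YG-S98 arrays by RMA, that is background correction, quantile normalization and summary of the probes of a probe set. The genome build and software versions are not given in the sources used here. Their log2 was taken with no further scaling. Of 9335 probe sets 60 are controls, 6504 match 1 gene, 328 several and 2443 none, and of the probe sets of a gene the one with the highest mean was kept, for 5656 genes. The Absent/Present filter of the study was not used here.

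The functions lmFit and eBayes of limma 3.58.1, under R 4.3.3, were run on the 6 arrays with replicate number as a block, which leaves 2 residual degrees of freedom and 10.9 prior ones. The thresholds are those of the study, 1.5-fold at the least and 0.10 at the most for the p adjusted by Benjamini and Hochberg. Arrays were paired by the replicate number in their sample titles, and the values served only as a check. Deviations from the group means correlated at 0.65, 0.50 and 0.67 between arrays with the same number, and at -0.54 to -0.04 otherwise. The deviations within a group cancel out for each gene, so negative correlations between other numbers are partly built in. What a number stands for is not stated. With the block, the p-values measure the spread of the differences within pairs, moderated by that of all genes. The spread between cultures that a pair has in common is not part of them, and 3 arrays a group limit the precision. An exact permutation test of 3 against 3 without the pairing cannot go below p = 0.1. One within the 3 pairs has fewer arrangements and so a higher limit, and neither was run.

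The text names the 15 largest rises and falls among called genes with 1 sign in all pairs, in each list up to 6 members ranked by adjusted p, and the reductase and histone lists in full. Other genes were named for their known role, or as stated, after their values were seen. The members, the 38 gene lists and the comparisons were chosen with earlier results of these data known. Lists are described by counts and medians, with no set test. Alternatives were no block, the block in a fit of 18 arrays, cyclic loess, median centring, an intensity trend, other filters and thresholds, all probe sets, the local pooled error test of the study (written from its description) and leaving out each pair. The fits were tested on simulated data with 200 changed genes. Promoter motifs were not analysed here, and some genes are not reported here.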

Additional observations from a re-analysis of the deposited data

How the results depend on the processing

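Of the 173 calls (91 higher, 82 lower), 17 (10 and 7) were found with no replicate block in the fit of 6 arrays and 51 (26 and 25) with no block in the fit of 18, while the block in the fit of 18 gave 129. The local pooled error test, which takes no pairing, gave 35 (21 and 14). This version was written from a description of the test and used no Absent/Present filter. The paper counts more ORFs for γ-radiation with its own run of the test at the same limits. The count of 35 therefore does not stand for that of the study, and the cause of the gap was not tested. Dropping the fold limit gave 524 (234 and 290). Leaving out a pair gave 106 to 258 calls, 65 to 148 higher and 41 to 110 lower. The share of higher calls was within 5 percentage points of the main one under cyclic loess (99 of 173) and median centring (99 of 176). An adjusted p of 0.05, an intensity trend, all probe sets and no dim genes gave 155 to 185. For the difference from the enediynes, 48 calls became 19 with no block, 23 at an adjusted p of 0.05 and 5 to 20 without a replicate. Of the named genes 4 that were not called changed sign with a pair left out: *WTM1* (-0.081 to 0.19), *CRT10* (-0.079, -0.024 and 0.13), *HHO1* (-0.021 to 0.27) and *HSP104* (-0.14 to 0.026). No called gene that is named changed sign. The cause of these shifts was not tested.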

Other observations

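Some genes that rose lie side by side on a chromosome. Of 87 genes called higher that have a tested neighbour, 12 (13.8%) lay next to another gene called higher, beside 158 of 5426 genes (2.91%) overall. For genes called lower it was 4 of 82 (4.88%) beside 2.71%. The 7 adjacent pairs that rose include *ALG14*, *YBR071W* and *HSP26* in a row (1.13, 0.69 and 1.03 log2) and *IRC24*, *HYR1* and *GTT1* in a row (0.70, 0.76 and 1.45). They also include *NCA3* and *ASF1* (0.79 and 1.07), which are transcribed away from each other, *ECM4* and *MSA2* (0.62 and 0.91), and *MLO50* and *EMA19* (0.71 and 1.10). The 2 pairs that fell were *PHO3* with *PHO5* and *ARO5* with *CDC20*, and in 1 pair the genes moved in opposite directions, *YPR015C* up and *TIF6* down. Neighbours from the RefSeq gene table were used, and the pairs were looked for after the calls were known. No test of chance was made.

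The calls also differed in how bright the genes were. The median mock intensity was 38.2 for genes called higher and 60.7 for genes called lower, beside 25.9 for all genes tested. Past 1.5-fold were 407 genes in pair 1, 468 in pair 2 and 441 in pair 3 taken alone.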
